A study of Mus musculus with 7 samples.

Results

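The acyl-CoA thioesterase (Acot) genes were compared between duodena of Ppara lox/lox and Ppara I-KO mice. Members were taken by name, as the rows of the deposited table whose symbol was 1 of 10 listed Acot symbols. This rule uses no measured value, but the list was chosen with earlier results of these data known. Of the 10, 9 had a row among the 14795 genes of the table, and Acot3 had none. A filter of more than 1 CPM (reads scaled to an adjusted library size) in at least 3 libraries left 8 members among 13399 genes tested. Acot1 exceeded 1 CPM in 2 libraries only and is described without the test across genes. The controls were 3 mice with both Ppara alleles floxed (Ppar-alpha loxP/loxP), and the 4 I-KO mice carried the same floxed alleles with Villin-Cre. Villin-Cre is active in the intestinal epithelium, so the muscle, immune and vascular cells of the duodenum kept Ppara. All were male mice labelled C57BL/6, on HFD for several weeks according to the methods of the study, whereas the labels give no diet. By the labels, food was withheld for 6 h and then returned for 6 h before death, while the methods give a shorter fast, with no refeeding, as the general rule for mice of the study, with exceptions. The age of these mice is not given in the sources used here.

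Acyl-CoA thioesterases split the thioester bond of an acyl-CoA, which frees the fatty acid and coenzyme A. They work against the acyl-CoA synthetases, which make acyl-CoA, and draw on the same pool as the carnitine acyltransferases. The type I enzymes (Acot1, Acot2, Acot3, Acot4, Acot5 and Acot6 in mice) are close paralogs from 1 gene cluster with different destinations in the cell, whereas the type II enzymes share a hotdog fold and little sequence. Several type I genes and Acot8 are known from liver as targets of PPARα. By textbook location, Acot1, Acot7, Acot11 and Acot12 are cytosolic, Acot2, Acot9 and Acot13 mitochondrial, and Acot3, Acot4 and Acot8 peroxisomal, although Acot7 has other isoforms and Acot13 also occurs in the cytosol.

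Low values lay on a grid set by 1 read, from which 20744300 to 25908198 reads per library were estimated. Ppara itself was at 53.4, 49.3 and 63.2 CPM for lox/lox replicates 1 to 3, and 33.1, 40.6, 47.5 and 69.9 CPM in I-KO replicates 1 to 4. The groups overlapped, and the library labelled I-KO replicate 4 was the highest of all. A whole-gene value includes reads outside the floxed part and reads from cells without Cre, and so does not check the deletion. All 10 enterocyte markers were in the table, with summed levels of 46188 to 55503 CPM in lox/lox mice and 45462 to 60440 CPM in I-KO. The 13 acinar pancreas markers in the table summed to 407 CPM in I-KO replicate 1 and 91.8 CPM in lox/lox replicate 2, against 24.7 to 39.7 CPM elsewhere. Smooth muscle markers summed to 1063 to 1320 CPM for lox/lox against 1102 to 1550 CPM for I-KO, B and plasma cell markers to 419 to 499 against 360 to 465 CPM, and T cell markers to 166 to 172 against 124 to 237 CPM, so the groups overlapped for each, and their part in the results was not tested. Members are therefore also given below with I-KO replicates 1 and 4 left out in turn. In bulk tissue, fewer cells of a type and less RNA per cell cannot be told apart.

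By limma, 0 of the 8 tested members differed between genotypes at an adjusted p of 0.05, where 0.0299% of all genes tested did (4 genes, with 0.0224% higher and 0.00746% lower in I-KO). At an unadjusted p of 0.05 by limma, 4 members were lower in I-KO (Acot2, Acot4, Acot8 and Acot11), against 2.42% of all genes in that direction, and 1 was higher (Acot9), against 2.32%. The values of 3 members lay lower in every I-KO library than in any lox/lox library (Acot2, Acot8 and Acot11), where 3.28% of genes were separated in this way. Acot9 was higher in every I-KO library, where 2.91% of genes were, and in both directions together 6.19% of genes were separated. The median log2 fold change of the 8 members was -0.16, with a range from -0.82 to 0.25, beside a median of 0.0017 over all genes tested. The limma fold changes are on the log2(CPM + 1) scale, which understates the change of low genes.

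**Figure D1:**
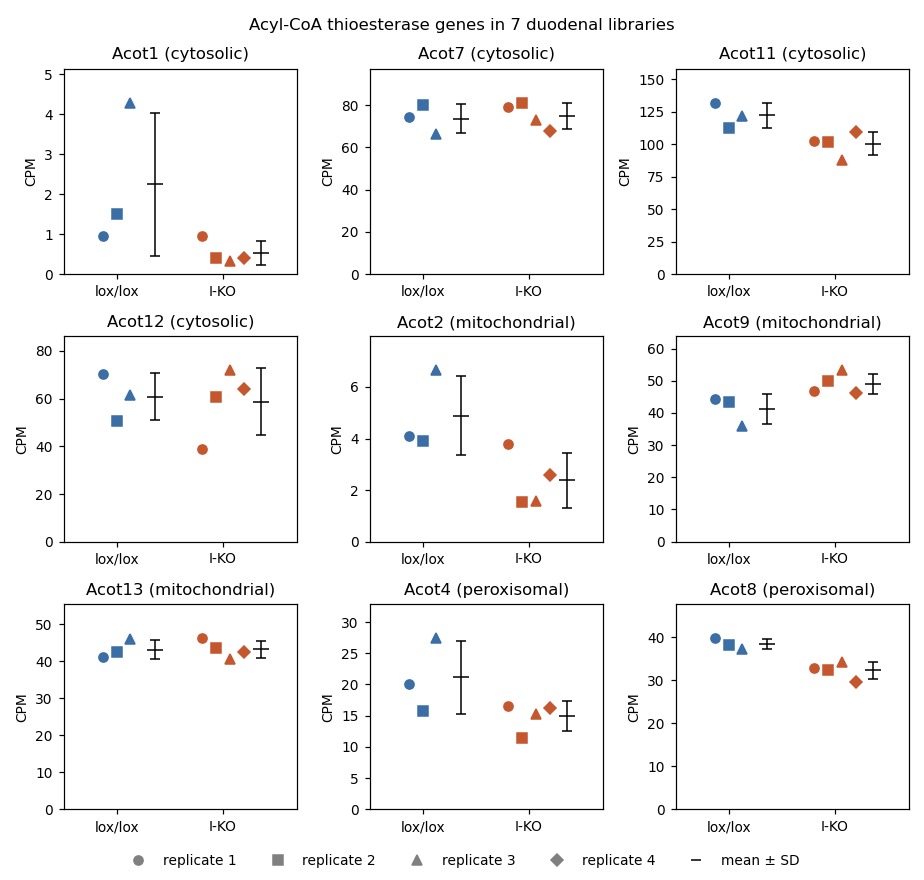
Each panel plots 1 Acot gene, with the deposited value of each library (CPM, from 0) by genotype, 1 symbol per replicate number, and the mean ± SD of 3 lox/lox and 4 I-KO libraries. Acot2, Acot8 and Acot11 are lower and Acot9 is higher in all 4 I-KO libraries, and Acot1, Acot2 and Acot4 are highest in lox/lox replicate 3.

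The cluster of type I genes on chromosome 12 held the members with the largest differences. In GRCm38 (mm10) the 6 genes lie on the + strand between 83987861 and 84111349, in the order Acot2, Acot1, Acot4, Acot3, Acot5 and Acot6. Acot3 and Acot5 had no row in the table. The 250 bases before the RefSeq start sites of Acot2, Acot1 and Acot4 are shown. These 3 genes had the lowest I-KO levels relative to lox/lox. Acot12 of chromosome 13, the only member besides Acot4 with a match to the motif below, is also shown. Its log2 fold change was -0.072, while Acot7 (0.029) and Acot13 (0.0023) lay nearer 0. The windows were searched on both strands for AGGTCA repeated in the same direction with 1 base of any kind between. PPARα with RXR is known to bind this motif. Capitals mark a match with at most 2 of the 12 fixed letters changed, on the opposite strand in both cases. All are from build GRCm38.p6 and read 5′ to 3′ on the + strand.
Acot2, chr12:83987611-83987860: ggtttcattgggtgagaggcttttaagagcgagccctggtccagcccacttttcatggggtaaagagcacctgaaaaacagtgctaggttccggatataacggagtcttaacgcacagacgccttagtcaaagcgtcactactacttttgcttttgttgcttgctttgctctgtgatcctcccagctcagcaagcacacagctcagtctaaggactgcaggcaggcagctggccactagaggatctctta
Acot1, chr12:84009252-84009501: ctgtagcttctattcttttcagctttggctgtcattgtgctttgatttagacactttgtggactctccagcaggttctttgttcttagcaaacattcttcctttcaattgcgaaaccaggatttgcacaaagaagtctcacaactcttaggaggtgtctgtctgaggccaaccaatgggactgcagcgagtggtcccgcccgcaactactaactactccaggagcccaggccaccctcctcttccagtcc
Acot4, chr12:84038129-84038378: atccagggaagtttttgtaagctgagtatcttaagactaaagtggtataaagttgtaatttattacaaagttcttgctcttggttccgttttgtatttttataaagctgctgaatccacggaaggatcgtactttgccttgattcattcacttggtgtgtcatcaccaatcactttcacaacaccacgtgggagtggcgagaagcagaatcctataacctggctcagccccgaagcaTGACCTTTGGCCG
Acot12, chr13:91741271-91741520: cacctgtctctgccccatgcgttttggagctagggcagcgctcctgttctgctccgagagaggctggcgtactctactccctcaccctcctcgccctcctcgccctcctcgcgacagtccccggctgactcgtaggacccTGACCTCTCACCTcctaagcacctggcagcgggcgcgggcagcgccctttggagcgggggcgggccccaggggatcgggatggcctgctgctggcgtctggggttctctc

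The window of Acot4 ended in a match with 2 changed letters, directly before the start site. At this limit 3.86% of 32851 promoter windows of 300 bases held a match. The match of Acot12, 110 bases before its start site, had 1 changed letter, which 0.554% of the windows reached. Acot1 and Acot2 held none with fewer than 4 and 3 changed letters, respectively, which says nothing of binding there or elsewhere. The windows found for the other members, all but Acot13, held none within 2 letters either. A match describes the letters only.

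Acot2 encodes the mitochondrial type I enzyme for long-chain acyl-CoA and lies between 83987861 and 83993873. Lox/lox replicates 1 to 3 had 4.10, 3.90 and 6.64 CPM, against 3.78, 1.53, 1.59 and 2.60 CPM in I-KO replicates 1 to 4. Every I-KO value was below every lox/lox value, although I-KO replicate 1 came within the distance between lox/lox replicates 1 and 2. The I-KO mean of 2.38 ± 1.06 CPM (SD, n = 4) was 48.7% of the lox/lox mean of 4.88 ± 1.53 CPM (SD, n = 3). Its log2 fold change of -0.82 (standard error 0.24, 95% confidence interval -1.37 to -0.27) was the largest of the tested members and did not pass limma's test (adjusted p = 0.83). The exact two-sided permutation test gave p = 0.0571, and 3 libraries against 4 cannot reach a p under 0.0286. Without I-KO replicate 1 the value was -1.01, and leaving out I-KO replicate 4 gave -0.87. Without lox/lox replicate 3, the highest library, it was -0.62.

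Acot1, between 84009490 and 84018371, encodes the cytosolic long-chain enzyme, which is strongly inducible in liver by PPARα agonists. Its values were 0.94, 1.5 and 4.28 CPM for lox/lox replicates 1 to 3, and 0.96, 0.39, 0.32 and 0.41 CPM in I-KO replicates 1 to 4. These values rest on about 19, 35 and 109 reads in lox/lox mice and about 20, 10, 6 and 10 reads in I-KO. I-KO replicate 1 lay just above lox/lox replicate 1, and the other 3 I-KO libraries lay below all lox/lox libraries. The I-KO mean of 0.52 ± 0.30 CPM (SD, n = 4) was 23.2% of the lox/lox mean of 2.24 ± 1.79 CPM (SD, n = 3). The difference of the mean log2(CPM + 1) was -0.97 (exact two-sided permutation test, p = 0.0571), and -0.55 without lox/lox replicate 3. With I-KO replicate 1 or 4 left out it was -1.10 or -0.94. By counting error alone, lox/lox replicate 3 (exact Poisson 95% interval 3.52 to 5.17 CPM) was apart from lox/lox replicate 2 (1.05 to 2.09 CPM). On these estimated read numbers, the mice of this group differed by more than sampling.

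Acot4, the peroxisomal type I member that acts on succinyl-CoA in mice as well as on dicarboxylyl-CoA, lies between 84038379 and 84048601. It had 20.1, 15.8 and 27.4 CPM in lox/lox mice, and 16.6, 11.4, 15.3 and 16.3 CPM in I-KO. Of the I-KO libraries, 2 lay below all lox/lox libraries, and the other 2 lay above lox/lox replicate 2. The log2 fold change was -0.46 (standard error 0.19, 95% confidence interval -0.88 to -0.04, adjusted p = 0.954 from limma), with p = 0.114 from the exact two-sided permutation test. It was -0.26 without lox/lox replicate 3, -0.51 with I-KO replicate 1 left out and -0.50 with replicate 4 left out.

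Acot1, Acot2 and Acot4 were each highest in lox/lox replicate 3. Within I-KO each was highest in replicate 1 and next highest in replicate 4. Acot2 and Acot4 had the same order of libraries in both groups. Acot1 differed from them in the order of lox/lox replicates 1 and 2 and of I-KO replicates 2 and 3. Some PPARα targets outside the family were also highest in lox/lox replicate 3, such as Acaa1b and Vnn1, while others, such as Acaa1a and Decr1, were not. The peak in that library is thus not particular to the cluster. Acot1 amounted to 22.9%, 38.5% and 64.5% of the Acot2 value in lox/lox replicates 1 to 3, and to between 15.8% and 25.5% in the I-KO libraries. The groups overlapped in this share, with lox/lox replicate 1 among the I-KO values. The coding sequences of Acot1 and Acot2 are 95.3% identical over 1236 aligned bases. Of the 100-base windows of the Acot1 transcript, the length of the reads, 16.5% occur letter for letter in Acot2, and 21.9% in at least 1 other gene. For Acot2 17.1% of windows occur in Acot1. How such reads were counted is not given in the sources used here, so the split between these 2 genes is uncertain. Their sum was 5.04, 5.40 and 10.9 CPM in lox/lox mice and 4.74, 1.92, 1.91 and 3.01 CPM in I-KO, and so was lower in every I-KO library.

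Around the cluster, the 6 tested genes outside the family within 250 kb had log2 fold changes between -0.07 and 0.06, with a median of 0.02, and 0 of them passed an adjusted p of 0.05 by limma. None of these 6 had an unadjusted p below 0.05 by limma. They include Numb on one side, an inhibitor of Notch signalling, and Ptgr2 on the other, which encodes prostaglandin reductase 2. Acot6, the last gene of the cluster, was at or below 0.71 CPM in every library and was not tested. Its values were 0.44, 0.69 and 0.71 CPM in lox/lox mice and 0.57, 0.31, 0.32 and 0.58 CPM in I-KO, or about 6 to 18 reads per library. The groups overlapped, and their difference was not detectable at this depth (exact two-sided permutation test, p = 0.229).

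**Figure D2:**
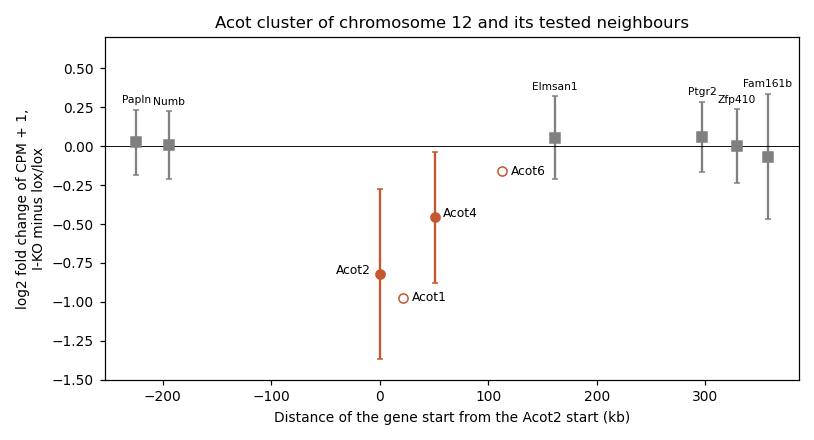
The log2 fold change of CPM + 1, I-KO minus lox/lox, is plotted against the distance of each gene start from that of Acot2 (kb). Circles are Acot genes and grey squares are other tested genes, with limma's 95% confidence interval where tested. Open circles, too low to be tested, give the difference of the mean log2(CPM + 1) without an interval. Acot2 (-0.82), Acot1 (-0.97) and Acot4 (-0.46) lie below the 6 neighbours, which lie between -0.07 and 0.06. Acot6 (-0.16), at or below 0.71 CPM in every library, lies below them too.

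Among the peroxisomal members, Acot8 had the tightest groups. It encodes a type II thioesterase of broad substrate range, and lies on the - strand of chromosome 2 between 164792765 and 164804882. It had 39.7, 38.2 and 37.3 CPM in lox/lox mice, and 32.9, 32.3, 34.3 and 29.6 CPM in I-KO. All 4 I-KO libraries were below all lox/lox libraries, and the smallest gap was between 34.3 and 37.3 CPM. The mean of 32.2 ± 1.98 CPM (SD, n = 4) in I-KO was 83.9% of the lox/lox mean of 38.4 ± 1.23 CPM (SD, n = 3). The log2 fold change was -0.25 (standard error 0.08, 95% confidence interval -0.43 to -0.06), with an adjusted p of 0.935 from limma, and p = 0.0286 from the exact two-sided permutation test. Leaving out I-KO replicate 1 gave -0.26, and leaving out replicate 4 gave -0.21. Of the 100-base windows of Acot8, 13.8% lie opposite to Snx21, which had 5.97 CPM in lox/lox mice and 7.09 CPM in I-KO on average. The kit keeps the strand of each read, but whether counting used it is not given in the sources used here, and reads of the overlap could otherwise not be told apart.

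Of the cytosolic members, Acot11 (also called Them1), a lipid-binding thioesterase best known from brown fat, was lower in all I-KO libraries. Its values were 132, 113 and 122 CPM in lox/lox mice, and 102, 102, 88.0 and 109.6 CPM in I-KO, so that I-KO replicate 4 came closest to the lox/lox range. The I-KO mean of 100.5 ± 9.04 CPM (SD, n = 4) was 82.3% of the lox/lox mean of 122 ± 9.56 CPM (SD, n = 3). The log2 fold change was -0.28 (standard error 0.10, 95% confidence interval -0.51 to -0.05, adjusted p = 0.954 from limma). The exact two-sided permutation test gave p = 0.0571 on the log2 scale and 0.0286 on untransformed values. Without I-KO replicate 1 it was -0.29, and without I-KO replicate 4 -0.32. The brown fat gene Ucp1 had no row in the table, and the 6 adipocyte markers with a row summed to 19.5 to 35.2 CPM in lox/lox mice and 19.96 to 29.1 CPM in I-KO. On the opposite strand Acot11 overlaps Fam151a, which had no row, in 15.6% of its 100-base windows, with the same limit as for Acot8.

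Acot7 and Acot12 did not separate the genotypes. Acot7, which hydrolyses long-chain acyl-CoA and is best known from neurons, had 74.2, 80.3 and 66.4 CPM in lox/lox mice, and 79.0, 81.1, 72.8 and 67.5 CPM in I-KO. The 2 ranges nearly coincided, and its log2 fold change of 0.029 (95% confidence interval -0.20 to 0.26, adjusted p = 0.987 from limma) turned to -0.0076 with column totals and to -0.042 without lox/lox replicate 3. With I-KO replicate 1 or 4 left out it was 0.0042 or 0.078. Acot12, which hydrolyses acetyl-CoA in the cytosol, had 70.2, 50.5 and 61.7 CPM in lox/lox mice, and 38.8, 60.5, 71.8 and 64.0 CPM in I-KO. I-KO replicate 1 was the lowest library and I-KO replicate 3 the highest, both outside the lox/lox range. Its log2 fold change was -0.072 (95% confidence interval -0.53 to 0.39, adjusted p = 0.982 from limma), and 0.11 without I-KO replicate 1, the library with the acinar markers, whose part in this value was not tested. Leaving out I-KO replicate 4 gave -0.12.

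The other mitochondrial members went different ways from Acot2. Acot9, on the X chromosome between 155262443 and 155297654, encodes a matrix enzyme that takes short- and long-chain acyl-CoA. Its values were 44.4, 43.3 and 35.99 CPM in lox/lox mice, and 46.8, 49.9, 53.2 and 46.3 CPM in I-KO. All I-KO libraries were above all lox/lox libraries, by as little as 44.4 against 46.3 CPM. The I-KO mean of 49.0 ± 3.19 CPM (SD, n = 4) was 119% of the lox/lox mean of 41.2 ± 4.56 CPM (SD, n = 3). Its log2 fold change was 0.25 (standard error 0.10, 95% confidence interval 0.02 to 0.47) and did not pass limma's test (adjusted p = 0.954). The exact two-sided permutation test gave p = 0.0286. This value was 0.16 without lox/lox replicate 3, the lowest library, and 0.27 without I-KO replicate 1 or replicate 4. Acot13 (Them2), a small hotdog-fold enzyme that associates with mitochondria, had 41.1, 42.5 and 46.0 CPM in lox/lox mice, and 46.3, 43.7, 40.6 and 42.5 CPM in I-KO. The groups overlapped almost fully. Its log2 fold change of 0.0023 had a 95% confidence interval from -0.19 to 0.19 and turned to -0.034 with column totals. With I-KO replicate 1 or 4 left out it was -0.030 or 0.011.

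**Figure D3:**
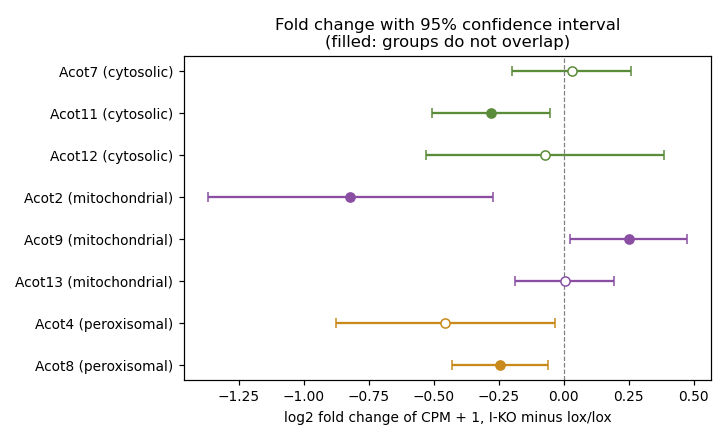
The log2 fold change of CPM + 1 (I-KO minus lox/lox) of the 8 tested members is shown with limma's 95% confidence interval, coloured by location and filled where no I-KO value overlaps a lox/lox value. The intervals of Acot2, Acot4, Acot8 and Acot11 lie below 0 and that of Acot9 above 0, each without adjustment for the number of genes.

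Levels can be compared between genes only per length, for which CPM was divided by the kilobases of annotated exon. In lox/lox duodena the highest level was that of Acot13, with 58.0 ± 3.39 CPM per kb (SD, n = 3), followed by Acot7 with 34.7 ± 3.28 CPM per kb (SD, n = 3). Acot11, Acot8, Acot12 and Acot9 followed with means from 20.2 down to 18.1 CPM per kb. Their ranges over libraries overlapped, so no order among these 4 can be given on this length. For Acot8 the annotated exons cover 1997 bases and the longest coding transcript 1152 bases, so its level depends on the length chosen. Acot4 (3.17 CPM per kb) and Acot2 (2.22 CPM per kb) overlapped each other, and Acot1 was lowest with 0.57 CPM per kb, below Acot2 in every lox/lox library. The type I members were thus the low end of the family in this tissue.

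Summed by location per length, the 9 members came to 171.5 to 178 CPM per kb in lox/lox mice and 165 to 173 CPM per kb in I-KO, which overlap. The 2 peroxisomal members summed to 22.9, 21.5 and 22.8 CPM per kb in lox/lox mice, and to 19.0, 17.9, 19.5 and 17.2 CPM per kb in I-KO. The peroxisomal share of the family was 12.8% ± 0.27 (SD, n = 3) in lox/lox mice and 10.9% ± 0.58 (SD, n = 4) in I-KO, without overlap, and most of it is Acot8. The mitochondrial share was 44.9% ± 1.61 (SD, n = 3) and 47.8% ± 1.43 (SD, n = 4), where I-KO replicate 3 (46.6%) lay next to lox/lox replicate 3 (46.2%). The cytosolic share was 42.3% ± 1.64 (SD, n = 3) and 41.4% ± 1.61 (SD, n = 4). No test was made on these sums, which depend on the same exon lengths.

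**Figure D4:**
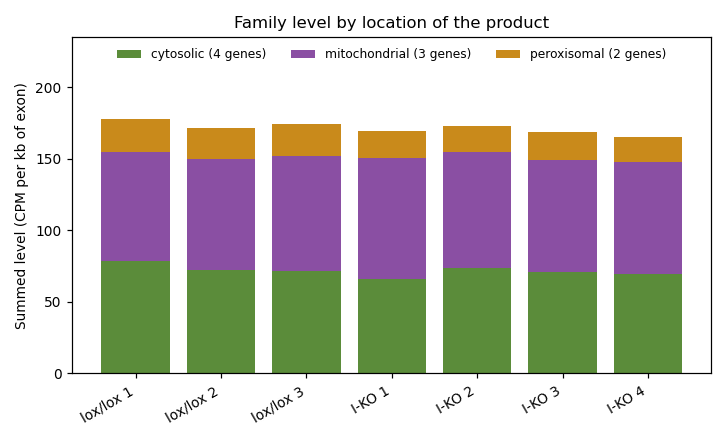
Stacked bars give, for each of the 7 libraries, the summed level (CPM per kb of exon) of the cytosolic, mitochondrial and peroxisomal Acot genes. The total is similar in all libraries (165 to 178 CPM per kb), and the peroxisomal part is between 17.2 and 19.5 in I-KO and between 21.5 and 22.9 in lox/lox.

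The genes with a pattern most like that of Acot2 over the 7 libraries were 1110002L01Rik (Pearson r = 0.965), Ano8 (0.963), Plekho2 (0.947), Mapk1ip1 (0.943) and Gnpat (0.934), on log2(CPM + 1). Gnpat encodes the acyltransferase that starts ether lipid synthesis in peroxisomes, and the log2 fold change of Plekho2 was -0.62 (limma, adjusted p = 0.331). Among the members, Acot4 had an r of 0.878 with Acot2 and ranked 34 among the genes tested, whereas Acot9 had an r of -0.928. All these values are over the same 7 libraries, which share the difference between genotypes, and are given as a description.

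Other acyl-CoA thioesterases were taken from a list of 7. Of these, Acot5, Acot10 and Them5 had no row, and limma gave 0 of the 3 tested at an adjusted p of 0.05, and 0 at an unadjusted p of 0.05. Them4, a mitochondrial enzyme, had 17.6, 16.0 and 16.8 CPM in lox/lox mice and 13.8, 15.5, 16.2 and 13.4 CPM in I-KO, with 1 I-KO library among the lox/lox values. Its log2 fold change was -0.19 (95% confidence interval -0.39 to 0.02, adjusted p = 0.954 from limma). Hibch, which acts on 3-hydroxyisobutyryl-CoA in valine breakdown, had a log2 fold change of -0.08 (95% confidence interval -0.31 to 0.16). Baat, which joins bile acids to amino acids in liver, was at 1.53 CPM or less in every library, with a log2 fold change of 0.12 (95% confidence interval -0.28 to 0.52).

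Among genes that make or use acyl-CoA, the lists differed in direction. The lists were chosen with earlier results of these data known, so their shares are a description only. Of the 16 acyl-CoA synthetase genes tested, 12 were higher and 4 lower in I-KO by the mean log2 value. Their median log2 fold change was 0.05, and limma gave 0 genes at either an unadjusted or an adjusted p of 0.05. All 5 tested carnitine acyltransferase genes were lower, with a median of -0.42. Of these, 3 were separated without overlap, beside 3.28% of all genes tested that were separated lower. The same 3 had an unadjusted p below 0.05 by limma, beside 2.42% of all genes in that direction. None of the list passed an adjusted p of 0.05 by limma. Cpt1a, which controls the entry of long-chain acyl groups into mitochondria, stood at a log2 fold change of -0.72 (limma, adjusted p = 0.134). Crot, the peroxisomal octanoyltransferase, had -0.47 (adjusted p = 0.83 from limma). The 3 nudix hydrolases that cleave coenzyme A had a median of -0.09 and 0 genes that passed limma's test, adjusted or not. Of 26 tested PPARα target genes outside the family, 23 were lower, with a median of -0.41, beside 49.4% lower over all genes tested. Of these targets, 15 were separated lower and 17 were lower at an unadjusted p below 0.05 by limma, beside the same shares of all genes. By limma 1 of them passed an adjusted p of 0.05, Me1 (malic enzyme 1), with 39.3, 29.7 and 42.6 CPM in lox/lox mice and 13.3, 14.7, 12.8 and 18.0 CPM in I-KO. Its log2 fold change was -1.28 (adjusted p = 0.0456 from limma), and the call was lost without any 1 of 5 libraries.

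**Figure D5:**
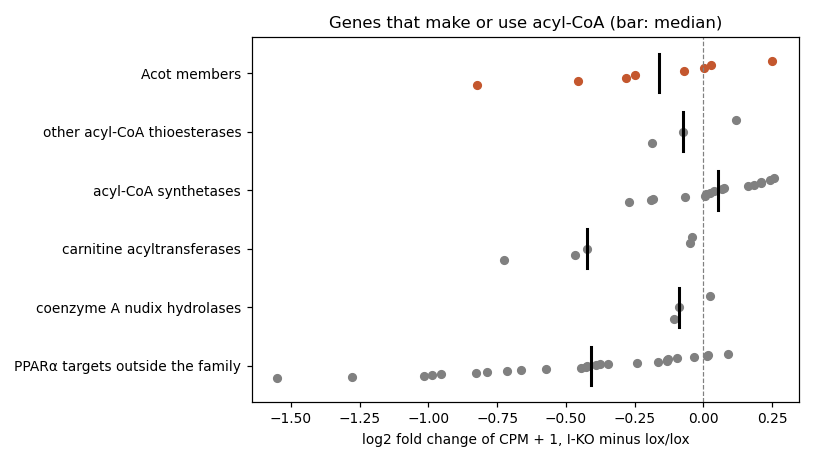
Each point is 1 tested gene, placed by its log2 fold change of CPM + 1 (I-KO minus lox/lox), in rows for the 8 Acot members and 5 related lists, with a bar at each median. Medians are -0.16 for the members, 0.05 for the synthetases, -0.42 for the carnitine acyltransferases and -0.41 for other PPARα targets.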

How the data were processed

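RNA from whole duodena was made into libraries with a kit that keeps strand and sequenced as single reads of 100 bases, per the labels. The submitters' processing notes name FastQC 0.11.2, TopHat2 2.0.13, Picard 1.80, HTSeq 0.6.1, edgeR and mm10. The authors deposited signal values, which are read counts scaled to an adjusted library size (CPM) to 2 decimals, for 14795 genes in 7 libraries. An empty last line was dropped. The value of 1 read, 0.0392 to 0.0530 CPM, was taken from the grid of low values. It was used for depth, for the read numbers and Poisson intervals given, and for the chi-square between replicates. Whole reads were established for low values only, so larger read numbers, and the intervals and chi-square that rest on them, are estimates.

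Log2(CPM + 1) of the 13399 genes that passed the filter entered a limma fit (3.58.1, R 4.3.3) on genotype alone, with Benjamini-Hochberg adjustment over all genes, and tested on simulated data. Count models were planned but not run, since whole reads were established for low values only (up to 20 reads, within 0.005 CPM). Single genes were compared by exact permutation over 35 splits. P-values measure the spread between the biological replicates of the labels, whose pairs differed by more than sampling noise (lowest chi-square 13.5 per degree of freedom).

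The members and lists were chosen with earlier results of these data known. All members, other thioesterases, list genes past the threshold and the 5 genes most like the tested member with the largest fold change are named. The neighbours of the cluster, the location sums and the overlaps of windows were added after the values were seen. The promoter search was not among the planned results, and the promoters shown were picked with the values known. Gene positions and exon lengths are from GENCODE M21 (GRCm38), and promoters from RefSeq (GRCm38.p6). Python 3.11.15, numpy 2.4.6, pandas 2.3.3, matplotlib 3.10.9 and Biopython 1.88 were used. Alternatives were 2 other scalings, no filter, a pseudocount of 0.5, an intensity trend, a block for the replicate number, and the omission of each library. Sample quality weights were added after the data were seen.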

Additional observations from a re-analysis of the deposited data

Results flagged for a closer look

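For Acot1, replicate 1 was far above the rest of the I-KO group (0.96 CPM, where they had 0.32 to 0.41 CPM). The distance to the next library made up 0.859 of the I-KO range, which is more than Dixon's 95% limit allows for 4 samples. It rests on about 20 reads, with an exact Poisson 95% interval of 0.585 to 1.48 CPM, beside an upper bound of 0.76 CPM in I-KO replicate 4. The same library held the acinar markers, whose part in this value was not tested. Of 14 genes searched in the I-KO group 1 stood out, where 0.7 would be expected by chance.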

How the results depend on the processing

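No tested member passed limma's test under any of the 14 alternatives run. Over 8 members and these alternatives, 101 of 112 log2 fold changes had the direction reported, and the other 11 belonged to Acot7, Acot12 and Acot13, which lay near 0. Acot7 was -0.0076 with column totals, Acot12 was 0.069 with sample quality weights, and Acot13 was -0.034 with column totals. When single libraries were left out, Acot7 was -0.042 (lox/lox replicate 3 out) and -0.0085 (I-KO replicate 2 out), within a range up to 0.093. Acot12 was 0.037 (lox/lox replicate 1 out) and 0.113 (I-KO replicate 1 out), within a range down to -0.197. Acot13 was -0.032 and -0.0084 (lox/lox replicate 1 or 2 out) and -0.030 and -0.0029 (I-KO replicate 1 or 2 out), within a range up to 0.047. Baat, of the other thioesterases, was -0.024 (lox/lox replicate 1 out), within a range up to 0.236. The cause was not tested.

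With each library left out, the log2 fold change was -1.01 to -0.62 for Acot2, -0.64 to -0.26 for Acot4, -0.28 to -0.21 for Acot8, -0.34 to -0.22 for Acot11 and 0.16 to 0.30 for Acot9. The highest unadjusted limma p in these fits was 0.0373 for Acot2, 0.160 for Acot4, 0.0547 for Acot8, 0.0851 for Acot11 and 0.152 for Acot9. Of these members, only Acot2 thus stayed below an unadjusted p of 0.05 by limma whichever library was left out. Of the members, 2 had an exact permutation p below 0.05 (Acot8 and Acot9), and 3 on values without a log. Only the lowest p that this permutation test can reach lies below 0.05. The share of all genes with such a p was not computed, so these counts cannot be set against a background. Genes called over the whole table were 4, between 3 and 5 with each library left out, and 12 with sample quality weights, which were chosen after the data were seen. Calls among the related lists were 1, Me1, and between 0 and 1 with each library left out. They were 0 with column totals, a pseudocount of 0.5 and the replicate block, and 6 with sample quality weights, Me1 and Cpt1a among them. The adjusted p of Me1 from limma was 0.0762 with column totals, 0.0722 with the pseudocount of 0.5 and 0.184 with the block, within 0.0191 to 0.243 over all alternatives. Leaving out lox/lox replicate 1 or 3 gave 0.226 or 0.243, and leaving out I-KO replicate 1, 2 or 3 gave 0.218, 0.145 or 0.132.

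Deviations from the group means correlated over genes by -0.01, 0.18 and -0.0092 between libraries with the same replicate number. The highest correlation with any I-KO library was 0.20, 0.18 and 0.28 for lox/lox replicates 1 to 3. For lox/lox replicate 2 this was the library of the same number. The labels give no pairing, and whether libraries shared a batch or litter cannot be told from these values. Under the replicate block 3 genes were called, 0 of them members. The 2 planned count models were not run. Column totals moved the median of all genes to -0.03.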
